A study of Chlorocebus sabaeus with 3 samples.

Results

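The cornea of the vervet monkey (Chlorocebus sabaeus) was set against its conjunctiva, gene by gene, on human arrays of the U133 Plus 2.0 design, with 1 array for either tissue. A probe set entered when its annotation gave exactly 1 gene symbol and its value was at least 100 in the cornea or the conjunctiva. This held for 16235 of 54675 probe sets, which represent 10770 of the 19775 genes named on the array. The measure was the log2 ratio of cornea over conjunctiva, so that positive values stand for higher in the cornea. The limbus, the rim between these tissues, gave a further array that had no part in the selection. Neither a treatment nor a genotype was given for the animals, which were in the third or the fourth year of life. By the study's methods, the corneal sample was the trephined centre, with the epithelium and the upper part of the stroma. The conjunctival sample held the connective tissue beneath its epithelium. All tissues came from the same eye according to the study's discussion. Each value therefore belongs to mixed tissue in which fewer cells of a type and less RNA per cell cannot be told apart. Whether RNA of several animals was pooled is not given in the sources used here. There was no replicate array, no difference could be set against an error, and no p-value is given.

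The cornea is a transparent tissue without blood vessels. Its stratified epithelium rests on a stroma of collagen fibrils spaced by keratan sulfate proteoglycans that keratocytes make. The conjunctiva is a mucous membrane whose epithelium holds goblet cells and rests on loose connective tissue with vessels, immune cells and accessory glands. The question of the comparison was which genes mark one surface against the other.

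In both directions large numbers of genes were apart. At least 2-fold higher in the cornea were 945 genes, which is 8.77% of the 10770, and at least 2-fold higher in the conjunctiva were 897, or 8.33%. In probe sets the counts were 1502 (9.25% of 16235) and 1262 (7.77%). Larger differences lay more often on the conjunctival side. At least 4-fold apart were 208 genes (1.93%) toward the cornea and 363 (3.37%) toward the conjunctiva, and at least 10-fold apart were 47 (0.436%) and 101 (0.938%). Among the genes at least 2-fold higher in the cornea, 596 of 945 (63.1%) reached 100 in both tissues, and among those higher in the conjunctiva 347 of 897 (38.7%) did. Of the 1734 genes whose higher value was 1000 or more, 240 (13.8%) were higher in the cornea by at least 2-fold and 155 (8.94%) in the conjunctiva. The median log2 ratio over all genes was 0.07.

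The split between the tissues moved with the scaling of the arrays. The hybridization controls, transcripts added in fixed amounts, had a geometric mean of 1128 on the corneal and 902 on the conjunctival array, a log2 difference of 0.32. As deposited, 51.3% of the genes apart were higher in the cornea. With each array divided by its hybridization controls this share was 26.3%, from 513 genes against 1440, and the median over all genes was -0.28, lower by 0.35. With the arrays quantile normalized to each other the share was 46.9%. A log2 ratio between 0 and about 0.32 therefore changes sign with this scaling, and a gene toward the cornea whose log2 ratio exceeds 1 by less than 0.32, such as KRT5, PAX6, EGFR or COL6A3, comes to lie under 2-fold.

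Where several eligible probe sets read 1 gene, the further ones were set beside the one with the highest mean. A further probe set that reached 100 in 1 tissue only had to lie toward that tissue. Those under 100 in both tissues were not counted. The shares that follow therefore depend in part on the limit and are no independent check. The 294 genes at least 2-fold higher in the cornea with further eligible probe sets had 431 of them, of which 375 (87.0%) had the same direction and 201 (46.6%) were also at least 2-fold apart. For the conjunctiva 322 of 345 (93.3%) had the same direction and 204 (59.1%) were at least 2-fold apart. In genes less than 2-fold apart 65.0% of 4689 further probe sets shared the direction. COCH, PEX11A and ZMYM6 had a further probe set at least 2-fold apart in the opposite direction. Just inside the level limit stood GSG1L, at 89.2 in the cornea against 100.01 in the conjunctiva, and just outside it MDM2, with a probe set at 99.98 in the cornea. At the fold limit, ATXN3 at 298 in cornea against 149 in conjunctiva was counted and CCNT2 at 481 in cornea and 241 in conjunctiva was not. On the conjunctival side LINC01315 at 87.4 in cornea against 175 in conjunctiva was counted and AIF1 at 176 in cornea and 351 in conjunctiva was not. The 3′ to 5′ ratio of GAPDH, which reads RNA length after amplification, was 4.58 in the cornea against 3.83 in the conjunctiva, and its part in the differences was not tested.

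**Figure D1:**
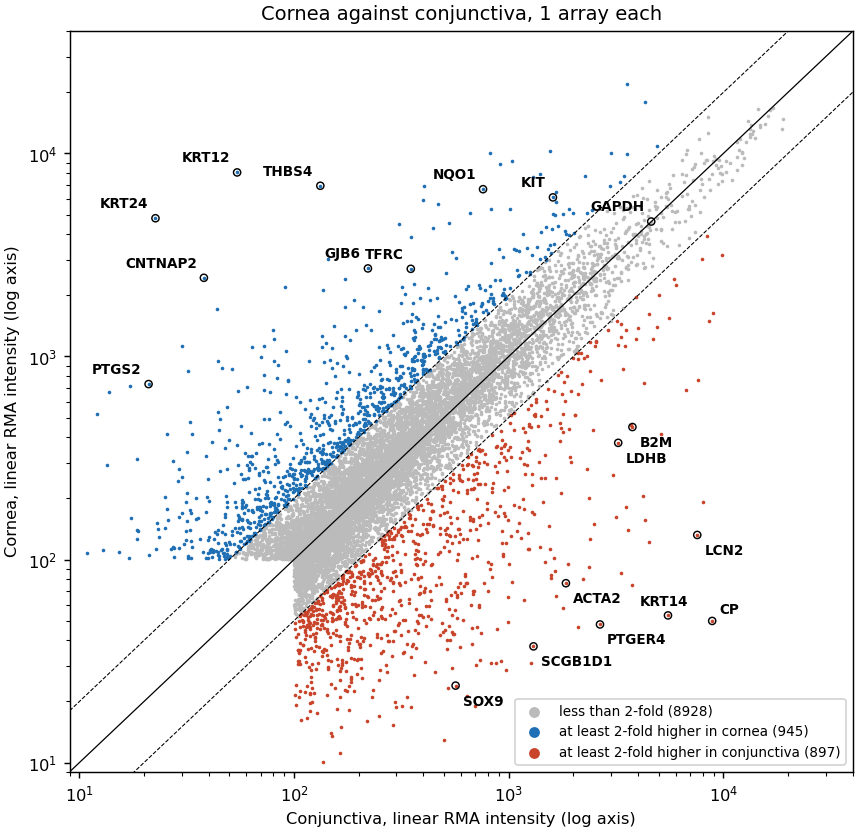
Linear RMA intensity of 10770 genes in the cornea (vertical, log axis) against the conjunctiva (horizontal, log axis), 1 array each; the solid line marks equal values, the dashed lines 2-fold, and circled genes are named. The cloud follows the line of equal values, with 945 genes above the upper and 897 below the lower dashed line, and of the 25 genes farthest out on each side 21 and 20 lie under 100 in the other tissue.

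Markers of each tissue were first set beside the labels. Of 14 corneal epithelial markers, all of which reached 100, 11 were higher in the cornea by at least 2-fold and 0 in the conjunctiva, with a median log2 ratio of 2.00. Of 14 measured markers of the corneal stroma, 12 reached 100, 9 were higher in the cornea against 1 in the conjunctiva, and the median over all 14 was 1.46. Of 17 markers of the conjunctival stratified epithelium, 16 reached 100, 11 were higher in the conjunctiva and 0 in the cornea, with a median of -1.85 over all 17. Of 13 goblet cell markers, 12 reached 100, 8 were higher in the conjunctiva and 0 in the cornea, with a median of -1.28. The markers ran with the labels of both arrays. Because the lists were chosen with earlier results of these data known, this is no independent check of the labels. In these and all later lists, a member that reached 100 in 1 tissue only had to be higher in that tissue. Beside each count stand the shares over all genes, 8.77% toward the cornea and 8.33% toward the conjunctiva.

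**Figure D2:**
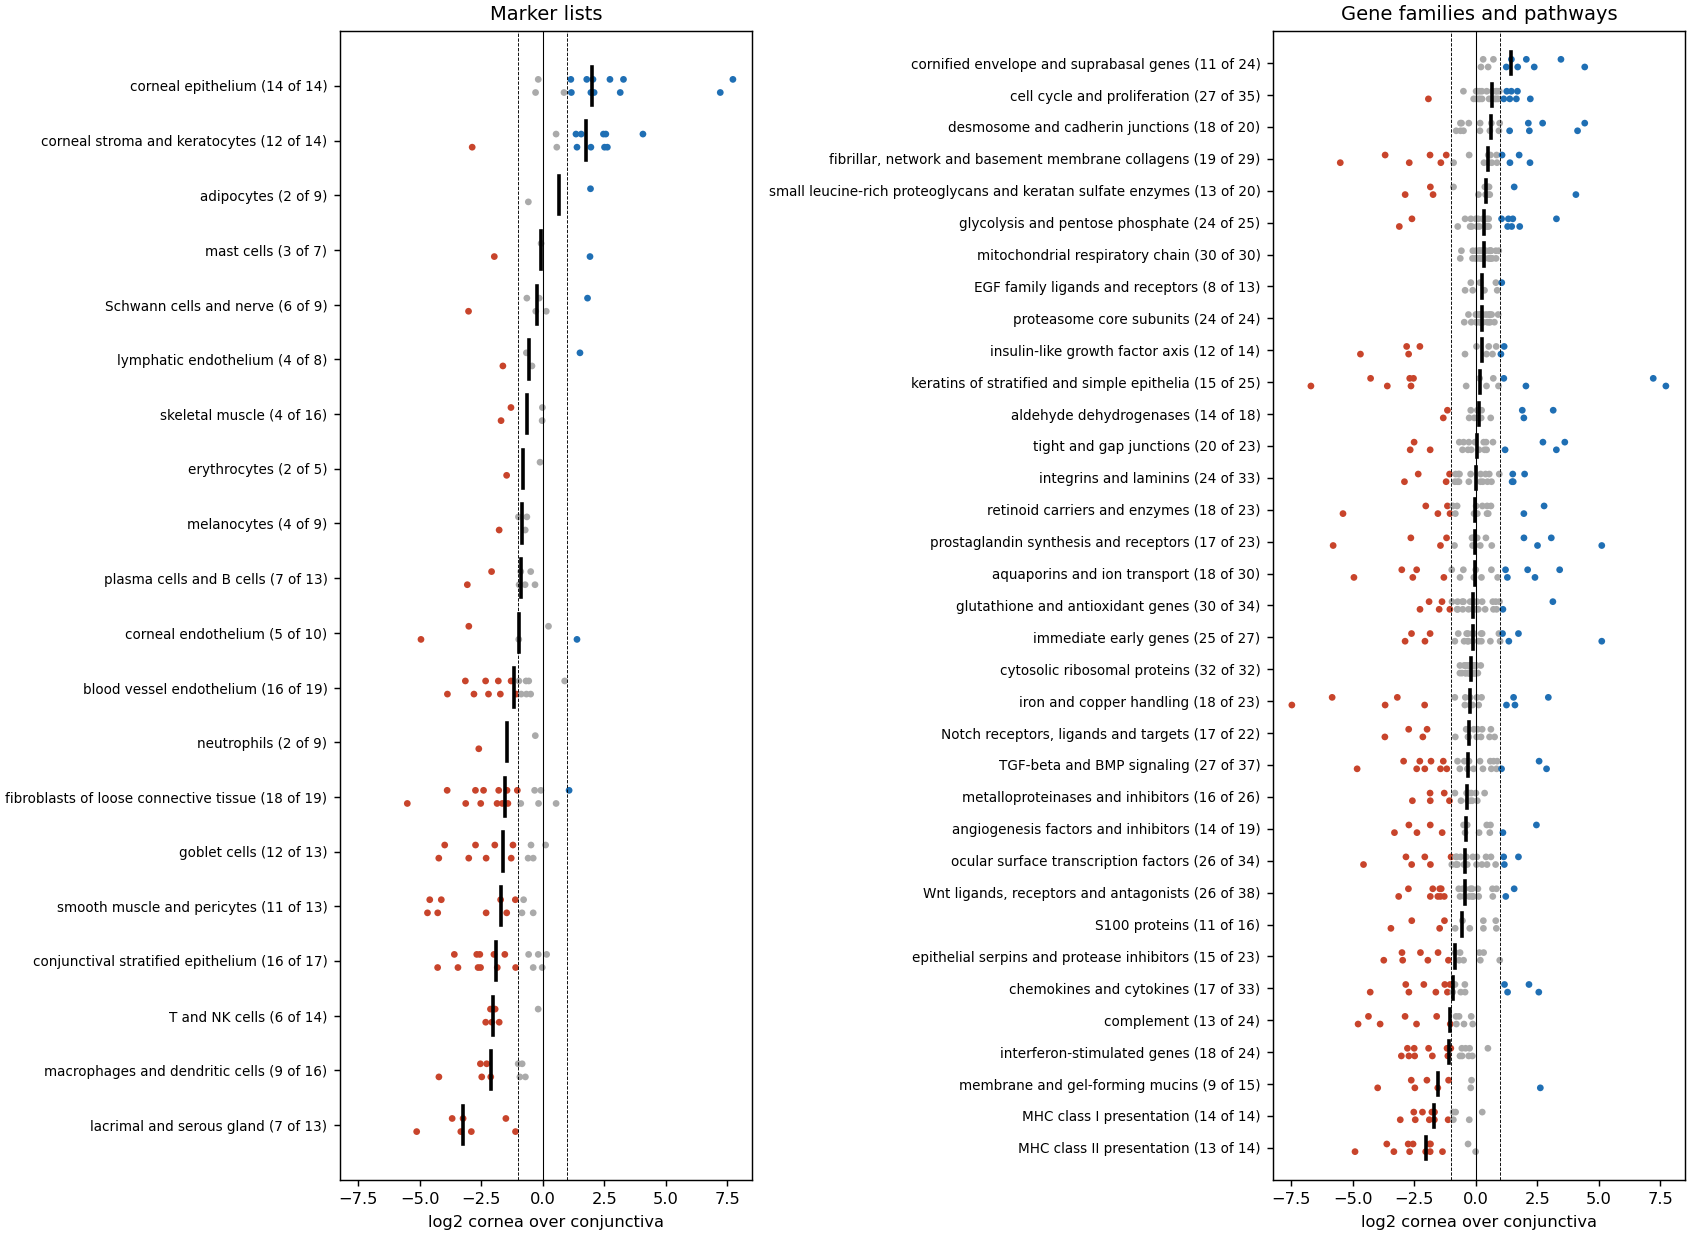
Log2 ratio of cornea over conjunctiva (horizontal axis) of list members that reached 100, 1 array per tissue, for marker lists (left) and gene families and pathways (right); each dot is a gene, blue or red where at least 2-fold higher in the cornea or the conjunctiva, thick bars are medians over these members, dashed lines mark 2-fold, and brackets give members at 100 of those measured. Markers of the corneal epithelium and stroma lie mostly to the right, and goblet, gland, vessel, immune and antigen presentation genes mostly to the left. The corneal endothelium list has a median of -0.98 over its 5 members at 100. Respiratory chain, proteasome and ribosomal genes stay within the dashed lines. A member that reached 100 in 1 tissue only, such as CD2 or PTPRC in the conjunctiva, has to lie on that tissue's side. Over all measured members the medians were -0.86 for T and NK cells and -1.02 for macrophages and dendritic cells.

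Keratins, the intermediate filament proteins of epithelia, separated the tissues in both directions. Of 25 measured, 15 reached 100, 4 were higher in the cornea by at least 2-fold and 6 in the conjunctiva. KRT12, the keratin of the corneal epithelium, was at 8068 in cornea against 54.3 in conjunctiva, and its partner KRT3 was at 252 in cornea and 61.3 in conjunctiva. KRT24 was at 4797 in the cornea against 22.6 in the conjunctiva, which was under that array's median of all probe sets, 50.7. KRT5, the basal keratin, was also higher in the cornea at 7264 in cornea against 3293 in conjunctiva. Its usual partner KRT14 was the opposite, at 53.1 in cornea and 5521 in conjunctiva, a log2 ratio of -6.70. KRT15, another basal keratin, had the same direction as KRT14 at 182 in cornea against 3520.1 in conjunctiva. The mucosal pair of KRT4 and KRT13 was higher in the conjunctiva, KRT4 at 181 in cornea and 1122 in conjunctiva and KRT13 at 303 in cornea against 1949.9 in conjunctiva. Among keratins of simple epithelia, KRT8 was at 60.0 in cornea and 725 in conjunctiva and KRT19 at 739 in cornea against 4272 in conjunctiva. KRT18, another keratin of simple epithelia, was nearly level at 1571 in cornea and 1409 in conjunctiva. KRT5 and KRT14 form 1 filament in basal cells of many epithelia, and their probe sets lay in opposite directions here. Each was read from 1 eligible probe set, and reading of related keratins by the same probes was not tested.

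**Figure D3:**
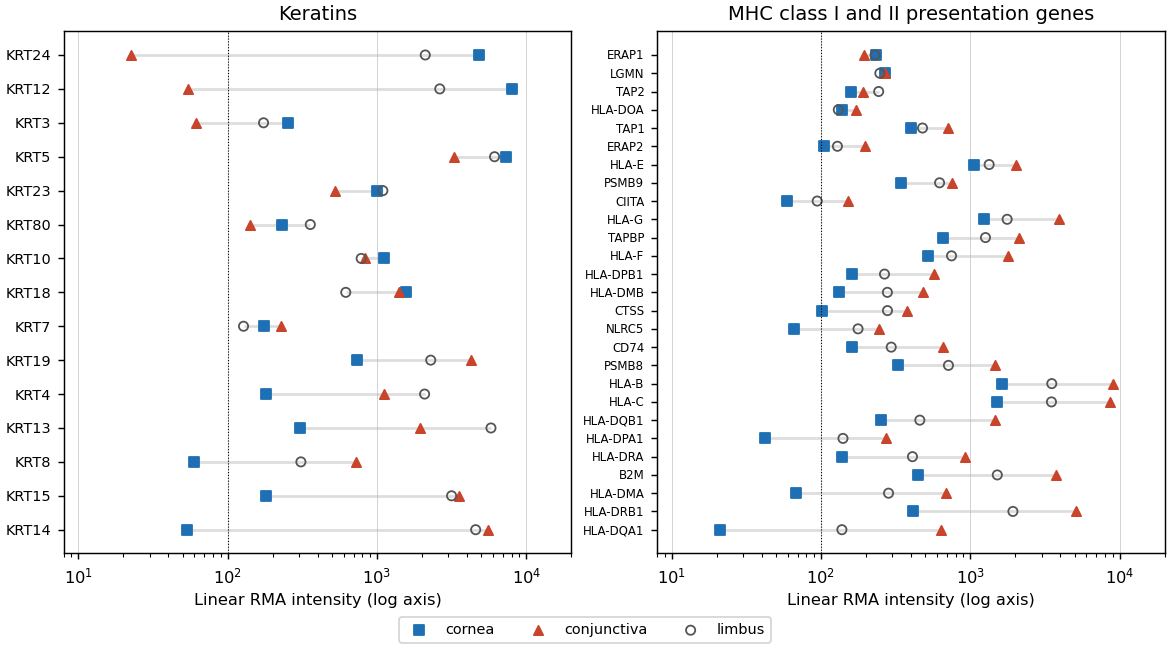
Linear RMA intensity (log axis) of the 15 keratins (left) and the 27 antigen presentation genes (right) that reached 100, with 1 array for each of the cornea, conjunctiva and limbus and a dotted line at 100. Keratins fan out in both directions, and for 20 antigen presentation genes the conjunctiva is at least 2-fold above the cornea.

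Of 24 measured genes of the cornified envelope and suprabasal layers, 11 reached 100, 7 of them were higher in the cornea by at least 2-fold and 0 in the conjunctiva. The median was 1.45 over the 11 and 0.21 over all 24, the latter less than the 0.32 by which the hybridization controls differed. SPRR1A, an envelope precursor, was at 3882 in cornea against 352 in conjunctiva, and SPRR1B at 2176 in cornea and 419 in conjunctiva. PPL and EVPL, plakins that join the envelope to desmosomes, were 3.26-fold and 2.37-fold higher in the cornea. SCEL, another envelope precursor, was at 689 in cornea against 166 in conjunctiva. SPRR3 was less than 2-fold apart, at 171 in cornea and 121 in conjunctiva, with a further probe set at a log2 ratio of 1.08.

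Desmosomes are the junctions that anchor keratin filaments. Of 20 desmosomal and cadherin genes 18 reached 100, 6 were higher in the cornea by at least 2-fold and 0 in the conjunctiva, with a median of 0.60 over the 18. By any fold 12 lay toward the cornea and 6 toward the conjunctiva. With division by the hybridization controls the median was 0.25 and 1 was at least 2-fold higher in the conjunctiva. The desmosomal cadherin DSG1 was at 291 in cornea against 13.5 in conjunctiva. DSC2 was at 1116 in cornea and 63.4 in conjunctiva and DSC3 at 1424 in cornea against 216 in conjunctiva. DSP, the plaque protein that binds keratin, was at 1895 in cornea and 431 in conjunctiva. PERP, a desmosomal membrane protein, was at 4404 in cornea against 1695 in conjunctiva. CDH2, the N-cadherin gene, was 4.53-fold higher in the cornea. Not every member took part, since DSG2 was at 277 in cornea and 337 in conjunctiva, with a further probe set at a log2 ratio of -1.23, and CDH3, the P-cadherin gene, at 302 in cornea against 427 in conjunctiva.

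Of 23 measured genes of gap and tight junctions 20 reached 100, 4 were higher in the cornea by at least 2-fold and 3 in the conjunctiva. All 4 of the former were connexins, the channel proteins of gap junctions. GJB6 was at 2716 in cornea and 221 in conjunctiva, GJB2 at 4299 in cornea against 443 in conjunctiva, and GJA1 at 10298 in cornea and 1551 in conjunctiva, so that these 3 were 12.3-fold, 9.7-fold and 6.64-fold higher in the cornea. GJB5 was at 168 in cornea against 73.5 in conjunctiva. A connexin of other tissues, GJC1, was the reverse at 32.2 in cornea and 204 in conjunctiva. The tight junction proteins CLDN8 and CLDN10 were higher in the conjunctiva, CLDN10 at 29.1 in cornea against 165 in conjunctiva. CLDN1 and TJP1, the brightest tight junction members, were less than 2-fold apart at log2 ratios of -0.03 and -0.28, but a further CLDN1 probe set was higher in the cornea at 172 in cornea and 51.6 in conjunctiva.

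Mucins and secreted proteins of goblet cells and glands lay on the conjunctival side. Of 15 measured mucins 9 reached 100, 6 were at least 2-fold higher in the conjunctiva and 1 in the cornea. MUC5AC, which goblet cells secrete as a gel, was at 102 in cornea against 1618 in conjunctiva, and MUC2 at 69.7 in cornea and 429 in conjunctiva. Further MUC5AC probe sets had log2 ratios of -1.70, -0.29 and -0.91. Membrane mucins of the glycocalyx followed, with MUC20 at 253 in cornea against 1409 in conjunctiva, MUC1 at 133 in cornea and 526 in conjunctiva and MUC16 at 429 in cornea against 922 in conjunctiva, with a further MUC1 probe set at a log2 ratio of -0.88. The exception was MUC15, a membrane mucin at 2034 in cornea and 329.7 in conjunctiva, which was 6.17-fold higher in the cornea. Goblet cell factors FOXA3 and FCGBP were at 23.4 in cornea against 155 in conjunctiva and at 121 in cornea and 972 in conjunctiva, respectively. SPDEF, the transcription factor of goblet cell maturation, was less than 2-fold apart at 199 in cornea against 277 in conjunctiva, with further probe sets at log2 ratios from 0.12 to -1.47.

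Of 13 lacrimal and serous gland genes measured, 7 reached 100, and those 7 were at least 2-fold higher in the conjunctiva. A member that passes the limit only through its conjunctival value has to differ, and over all 13 the median was -1.28 against -3.24 over the 7. The tear proteins LTF, LACRT and LCN1 were at 43.0 in cornea and 553 in conjunctiva, at 36.8 in cornea against 371 in conjunctiva and at 37.4 in cornea and 354 in conjunctiva. LYZ, the tear lysozyme, was at 3907 in cornea against 8426 in conjunctiva. PIP, SCGB2A2, SCGB1D2, ZG16B, BPIFA1 and STATH stayed under 100 in both tissues. The summed level of the list was 4472 in the cornea against 12670.3 in the conjunctiva, most of it from LYZ alone. The part of this list in the values of other secreted proteins was not tested.

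Of 23 measured serpins and protease inhibitors 15 reached 100, 7 were at least 2-fold higher in the conjunctiva and 0 in the cornea. WFDC2 was at 77.3 in cornea and 1032 in conjunctiva, SLPI, an inhibitor of leukocyte elastase, at 72.8 in cornea against 582 in conjunctiva, and SERPINA1, the antitrypsin gene, at 167 in cornea and 1307 in conjunctiva. SERPINB5, an epithelial serpin, was at 929.6 in cornea against 473 in conjunctiva and fell just short of 2-fold toward the cornea. Of 16 S100 genes, calcium-binding proteins, 11 reached 100 and 4 were higher in the conjunctiva. S100P was at 113 in cornea and 1237 in conjunctiva and S100A9 at 75.2 in cornea against 456 in conjunctiva. S100A4, the brightest, was less than 2-fold apart at 15121 in cornea and 8466 in conjunctiva.

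Stromal genes that mark the cornea were higher there, and those of loose connective tissue in the conjunctiva. KERA, a keratan sulfate proteoglycan, was 16.8-fold higher, at 312 in cornea against 18.5 in conjunctiva, and LUM, a related proteoglycan, was at 137 in cornea and 46.2 in conjunctiva. TGFBI, a matrix protein of the corneal stroma, was at 21896 in cornea against 3549 in conjunctiva. ANGPTL7 was at 162 in cornea and 29.2 in conjunctiva, and CXCL14, a chemokine, at 7637 in cornea against 1292 in conjunctiva, a direction that its further probe sets shared at log2 ratios of 3.59 and 1.90. OGN, also a small leucine-rich proteoglycan, was the opposite of KERA and LUM at 17.6 in cornea and 129 in conjunctiva, and DCN was less than 2-fold apart at 9335 in cornea against 6415 in conjunctiva, with further probe sets at log2 ratios from 0.62 to 1.02. Of the 20 measured proteoglycans and keratan sulfate enzymes 13 reached 100, with 2 higher in the cornea against 3 in the conjunctiva. CHST6 and B3GNT7, enzymes of keratan sulfate synthesis, were under 100 in both tissues.

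Collagens also lay in both directions. Of 29 measured, 19 reached 100, 4 were higher in the cornea by at least 2-fold and 6 in the conjunctiva. By any fold 11 lay toward the cornea and 8 toward the conjunctiva. The median was 0.51 over the 19 and -0.12 over all 29. With division by the hybridization controls it was 0.01 over the 17 that then reached 100. COL12A1, which coats fibrils, was at 1628 in cornea and 353 in conjunctiva, COL6A3 at 3085 in cornea against 1469.6 in conjunctiva and COL4A4, a basement membrane chain, at 247 in cornea and 72.7 in conjunctiva. On the other side stood COL3A1, a fibrillar collagen of distensible tissue, at 46.3 in cornea against 2105 in conjunctiva. The fibrillar chains COL1A1 and COL1A2 were at 1542 in cornea and 5589 in conjunctiva and at 2257 in cornea against 6032 in conjunctiva, and further COL1A1 probe sets had log2 ratios from -2.98 to -0.08. COL4A1 and COL4A2, chains of vascular and other basement membranes, were at 43.0 in cornea and 553 in conjunctiva and at 56.9 in cornea against 371 in conjunctiva, although a further COL4A1 probe set was at 72.2 in cornea and 121 in conjunctiva. Basement membrane chains therefore ran in opposite directions, COL4A4 toward the cornea and COL4A1 and COL4A2 toward the conjunctiva.

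Of 19 markers of loose connective tissue fibroblasts, 18 reached 100, 12 were at least 2-fold higher in the conjunctiva and 1, COL6A3, in the cornea. The median over the 19 was -1.45. C7, SFRP4 and SFRP2 were at 16.9 in cornea against 249.6 in conjunctiva, at 28.6 in cornea and 251 in conjunctiva and at 21.4 in cornea against 143 in conjunctiva. The list summed to 26649 in the cornea against 35933 in the conjunctiva, and its part in the collagen values was not tested. GSN, the brightest member, was level at 8700.4 in cornea and 9801 in conjunctiva. THBS4, a matricellular protein of tendon and other matrices, was among the largest differences of all genes toward the cornea, at 6934 in cornea against 133 in conjunctiva. CEMIP, which depolymerizes hyaluronan, was at 1121 in cornea and 72.5 in conjunctiva.

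Of 33 measured integrins and laminins 24 reached 100, with 4 higher in each tissue. LAMB1, ITGA6, ITGA2 and ITGB8 were higher in the cornea, LAMB1 at 486 in cornea against 123 in conjunctiva and ITGA6, a hemidesmosome chain, at 1297 in cornea and 451 in conjunctiva. Further probe sets of ITGA6 and ITGA2 were less than 2-fold apart at log2 ratios of 0.18 and 0.74. ITGA9 was at 24.8 in cornea against 185 in conjunctiva and NID2, a basement membrane linker, at 22.3 in cornea and 113 in conjunctiva. Of 26 metalloproteinases and inhibitors 16 reached 100, 5 were higher in the conjunctiva and 0 in the cornea. Among the 5 were MMP9 at 72.6 in cornea against 263 in conjunctiva and ADAMTS5, an aggrecanase, at 38.1 in cornea and 227 in conjunctiva. TIMP2, the brightest, was less than 2-fold apart at 5156 in cornea against 7816 in conjunctiva, but its further probe sets were over 2-fold higher in the conjunctiva at log2 ratios of -1.75 and -1.48.

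Vessel genes were higher in the conjunctiva, with smooth muscle genes beside them. Of 19 endothelial markers 16 reached 100, 9 were at least 2-fold higher in the conjunctiva and 0 in the cornea, with a median of -1.01 over the 19. VWF, the endothelial clotting factor carrier, was at 106 in cornea and 939.5 in conjunctiva. PECAM1, a junction protein of endothelium, was at 45.9 in cornea against 675 in conjunctiva, but a further probe set was nearly level at 136 in cornea and 148 in conjunctiva. ACKR1, a chemokine receptor of venules, was at 59.4 in cornea against 413 in conjunctiva. AQP1, a water channel of endothelium and other cells, ran toward the cornea at 665 in cornea and 359 in conjunctiva. The summed level of the list was 2098 in the cornea against 4858 in the conjunctiva.

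Of 13 smooth muscle and pericyte markers 11 reached 100, 8 were at least 2-fold higher in the conjunctiva and 0 in the cornea. The share over all genes was 8.33%. Most of the 8 also passed the limit through the conjunctiva alone, while MYH11 was at 142 in cornea and 701 in conjunctiva. The median over all 13 was -1.47. MYLK, the myosin light chain kinase, was at 91.6 in cornea against 2359 in conjunctiva and ACTA2, smooth muscle actin, at 76.4 in cornea and 1847 in conjunctiva. MYL9 was at 38.5 in cornea against 672 in conjunctiva. TAGLN was at 45.5 in cornea and 878 in conjunctiva, a direction shared by 1 further probe set with a log2 ratio of -1.53 and not by another at 0.31. RGS5 and PDGFRB, pericyte genes, were at 76.5 in cornea against 211 in conjunctiva and at 93.0 in cornea and 159.7 in conjunctiva, the latter less than 2-fold apart. The summed level was 1002 in the cornea against 7608 in the conjunctiva. Angiogenesis factors had 14 of 19 members at 100, 5 higher in the conjunctiva and 2 in the cornea. VEGFA, the main vascular growth factor, was at 253 in cornea against 1667 in conjunctiva and its co-receptor NRP1 at 18.2 in cornea and 180.3 in conjunctiva. THBS1, an inhibitor of vessel growth, was higher in the cornea at 166 in cornea against 77.2 in conjunctiva.

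Among all measured markers of immune cells a minority was at least 2-fold apart, and many stayed under 100 in both tissues. Of the T and NK cell and the macrophage and dendritic cell markers that reached 100, a majority was higher in the conjunctiva. Over all genes this share was 8.33%. Members that reached 100 only in the conjunctiva had to be higher there. Of 14 T and NK cell markers 6 reached 100 and 5 were at least 2-fold higher in the conjunctiva, with a median over all 14 of -0.86. CD2 was at 53.5 in cornea and 234 in conjunctiva and CD3D, a chain of the T cell receptor complex, at 111 in cornea against 378 in conjunctiva. Of 16 markers of macrophages and dendritic cells 9 reached 100 and 5 were higher in the conjunctiva, with a median over the 16 of -1.02. PTPRC, the pan-leukocyte antigen CD45, was at 18.8 in cornea and 352 in conjunctiva, and TYROBP at 32.8 in cornea against 183 in conjunctiva. Of 13 plasma and B cell markers 7 reached 100 and 2 were higher in the conjunctiva, POU2AF1, a B cell coactivator, at 22.6 in cornea and 189 in conjunctiva and IGLL5 at 77.3 in cornea against 327 in conjunctiva. Probe sets named IGLC1 and GUSBP11 were at 156 in cornea and 4297 in conjunctiva and at 123 in cornea against 4521 in conjunctiva, but immunoglobulin light chain sequences are nearly identical, and which gene they read is uncertain. A further GUSBP11 probe set had a log2 ratio of -0.06. Neutrophil markers reached 100 in 2 of 9 cases, and 1, S100A9, was higher in the conjunctiva.

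Antigen presentation genes lay on the conjunctival side with few exceptions. Of 14 class I genes all reached 100, 9 were at least 2-fold higher in the conjunctiva and 0 in the cornea, with a median of -1.68. B2M, the light chain of class I molecules, was at 449 in cornea and 3769.8 in conjunctiva, and its further probe set was nearer at 191 in cornea against 265 in conjunctiva. HLA-B and HLA-C were at 1634 in cornea and 8983 in conjunctiva and at 1499.5 in cornea against 8599 in conjunctiva. PSMB8, an immunoproteasome subunit, was at 327 in cornea and 1468 in conjunctiva, TAPBP, which loads peptides, at 656 in cornea against 2106 in conjunctiva (log2 ratio of a further probe set -0.65), and NLRC5, the class I transactivator, at 66.0 in cornea and 244 in conjunctiva. ERAP1 and TAP2 were less than 2-fold apart, at 234 in cornea against 195 in conjunctiva and at 159.6 in cornea and 192 in conjunctiva, though a further ERAP1 probe set had a log2 ratio of -1.42. HLA genes are near-identical copies read here by human probes, so the shares of single HLA genes are uncertain.

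Of 14 class II genes 13 reached 100, 11 were at least 2-fold higher in the conjunctiva and 0 in the cornea, with a median of -1.96 over the 14. HLA-DRA was at 138 in cornea against 929 in conjunctiva, and a further probe set at 139 in cornea and 759 in conjunctiva. HLA-DQA1 was at 21.2 in cornea against 636 in conjunctiva. CD74, the invariant chain, was at 161 in cornea and 661 in conjunctiva, with further probe sets at log2 ratios of -0.77 and -0.98. HLA-DMA, which edits the peptide, was at 68.0 in cornea against 683 in conjunctiva, and CIITA, the class II transactivator, at 59.4 in cornea and 152 in conjunctiva. LGMN, a lysosomal protease, was level at 269 in cornea against 269.5 in conjunctiva. The marker list of macrophages and dendritic cells summed to 984 in the cornea against 2655 in the conjunctiva, and its part in the class II values was not tested.

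Complement, interferon and chemokine genes lay mostly on the same side. Of 24 complement genes 13 reached 100, 7 were higher in the conjunctiva and 0 in the cornea, with a median over the 24 of -0.73. C3, the central component, was at 80.5 in cornea and 2218 in conjunctiva, and CFB, of the alternative pathway, at 205 in cornea against 4219 in conjunctiva. CLU and CD59, inhibitors of lysis, were less than 2-fold apart, at 7513 in cornea and 8539.6 in conjunctiva and at 2256 in cornea against 3142 in conjunctiva. Of 24 interferon-stimulated genes 18 reached 100, 10 were higher in the conjunctiva and 0 in the cornea, with a median over the 24 of -0.59. IFITM1 was at 69.4 in cornea and 565 in conjunctiva, IFI6 at 187 in cornea against 1057 in conjunctiva and GBP1 at 31.2 in cornea and 175 in conjunctiva. ISG15, IFIT1 and IFIT3 were less than 2-fold apart, with log2 ratios of -0.56, -0.25 and -0.29. Of 33 chemokines and cytokines 17 reached 100, with 8 higher in the conjunctiva and 4 in the cornea. CXCL17, a mucosal chemokine, was at 162 in cornea against 3163 in conjunctiva, and CXCL12, a stromal chemokine, at 53.2 in cornea and 382 in conjunctiva. TNFSF10, the TRAIL ligand, was higher in the cornea at 1118 in cornea against 249.5 in conjunctiva, as were IL18 at 1239 in cornea and 505 in conjunctiva and IL1RN, the receptor antagonist, at 377 in cornea against 168 in conjunctiva.

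Prostaglandin genes lay in both directions. Of 23 measured 17 reached 100, with 4 at least 2-fold higher in each tissue. The 4 higher in the cornea release the substrate or make prostaglandins. PLA2G4A, the cytosolic phospholipase, was at 1758 in cornea and 209 in conjunctiva, and PTGS2, the inducible cyclooxygenase, at 731 in cornea against 21.0 in conjunctiva. PTGDS, a prostaglandin synthase, was at 7945 in cornea and 1394 in conjunctiva, with further probe sets at log2 ratios of 2.49 and 2.47. AKR1C3, a reductase of the same route, was at 119.9 in cornea against 30.8 in conjunctiva. The 4 higher in the conjunctiva were PTGER4, a receptor, at 47.9 in cornea and 2662 in conjunctiva, ABCC4, an exporter, at 40.9 in cornea against 255 in conjunctiva, SLCO2A1, a transporter, at 50.3 in cornea and 136 in conjunctiva, and PTGIS, the prostacyclin synthase, at 78.5 in cornea against 179 in conjunctiva. PLA2G2A, a secreted phospholipase, was also far higher there, at 74.7 in cornea and 3741 in conjunctiva. PTGS1, the constitutive cyclooxygenase, was at 273 in cornea against 240.0 in conjunctiva. HPGD, which breaks prostaglandins down, was level at 109 in cornea and 119 in conjunctiva, with 753 in the limbus.

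Several metabolic enzymes were far higher in the cornea. Of 18 aldehyde dehydrogenases 14 reached 100, with 3 higher in the cornea against 2 in the conjunctiva. The largest of the 3 was ALDH3A1, at 9230 in cornea and 1041 in conjunctiva. ALDH1A1, a corneal crystallin and retinal dehydrogenase, was at 6432 in cornea against 1658 in conjunctiva. ALDH1L1 was at 309 in cornea and 83.4 in conjunctiva, with a further probe set at a log2 ratio of -0.28. The mitochondrial ALDH2 was the reverse at 197 in cornea against 493 in conjunctiva. Of 25 genes of glycolysis and the pentose phosphate route 24 reached 100, with 7 higher in the cornea against 2 in the conjunctiva. Their median was 0.36 over the 24 and 0.28 over all 25. When arrays were divided by their hybridization controls it was -0.04 over the 23 that then reached 100, with counts of 5 and 3. TKT, a transketolase, was at 8887 in cornea and 915 in conjunctiva and PGD, of the same route, at 1760.3 in cornea against 619.6 in conjunctiva. ENO1, the enolase, was at 7783 in cornea and 2255 in conjunctiva, with further probe sets at log2 ratios of 0.79 and 1.20, and SLC2A1, the glucose transporter, at 1209 in cornea against 482 in conjunctiva. The subunits of lactate dehydrogenase ran in opposite directions, LDHA at 2036 in cornea and 829 in conjunctiva and LDHB at 376 in cornea against 3237 in conjunctiva, and a further LDHB probe set was at 372 in cornea and 2780.0 in conjunctiva. PFKFB3, which drives phosphofructokinase, was higher in the conjunctiva at 319 in cornea against 1927 in conjunctiva. GAPDH was level at 4621 in cornea and 4612 in conjunctiva.

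By their brightest probe sets, 0 of 30 respiratory chain genes, 24 proteasome genes and 32 ribosomal protein genes were at least 2-fold apart. Their medians were 0.33, 0.24 and -0.18, and 0.01, -0.08 and -0.51 with division by the hybridization controls, so that the proteasome median changed sign. By any fold 25, 21 and 3 members lay toward the cornea and 5, 3 and 29 toward the conjunctiva. Further probe sets of NDUFB8, UQCRB and PSMD11 were over 2-fold higher in the cornea, at log2 ratios of 1.12, 1.33 and 1.05. Other further probe sets of NDUFB8 and UQCRB were less than 2-fold apart. These lists give the spread of genes that most cells use.

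Of 34 antioxidant genes 30 reached 100, with 2 higher in the cornea against 5 in the conjunctiva. NQO1, a quinone reductase, was at 6668 in cornea against 759 in conjunctiva, and its further probe sets had log2 ratios of 0.89 and 2.56. TXN, thioredoxin, was at 5249 in cornea and 2442 in conjunctiva. GPX2, a glutathione peroxidase of mucosal epithelium, was at 77.3 in cornea against 288 in conjunctiva, and MGST1 at 37.2 in cornea and 179 in conjunctiva. Among genes of iron and copper handling 18 of 23 reached 100, with 4 higher in the cornea against 5 in the conjunctiva. TFRC, the receptor that takes up transferrin iron, was at 2703 in cornea against 349.7 in conjunctiva. SLC40A1, the iron exporter, was the reverse at 89.6 in cornea and 817 in conjunctiva. The carriers CP, which oxidizes iron, and LCN2, which binds iron chelators, were 178-fold and 57.2-fold higher in the conjunctiva. MT2A and MT1X, metallothioneins, were higher in the cornea at 4951 in cornea against 1640.1 in conjunctiva and at 4089 in cornea and 1409 in conjunctiva.

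Water and ion transport differed by gene, with 18 of 30 members at 100 and 5 higher in each tissue. CLCA2, of the family of chloride channel regulators, was 10.6-fold higher in the cornea, at 339, and CLCA1, the mucus cell member of that family, was at 31.0 in cornea against 1276 in conjunctiva. KCNN4, a potassium channel, was at 375 in cornea and 70.6 in conjunctiva, CFTR, the chloride channel, at 141 in cornea against 57.9 in conjunctiva, and SCNN1A, a sodium channel subunit, at 380.2 in cornea and 164 in conjunctiva, although further SCNN1A probe sets had log2 ratios of -0.24 and 0.07. AQP5 and AQP3, water channels of epithelia, were higher in the conjunctiva at 199 in cornea against 1171 in conjunctiva and at 2404 in cornea and 5904 in conjunctiva. ATP1B1, a subunit of the sodium pump, was at 461 in cornea against 3709 in conjunctiva. SLC4A4, the sodium bicarbonate cotransporter, was at 57.6 in cornea and 1781 in conjunctiva, but a further probe set was on the other side at 109 in cornea against 76.0 in conjunctiva.

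Retinoid genes had 18 of 23 members at 100, with 2 higher in the cornea against 5 in the conjunctiva. CYP26A1, which degrades retinoic acid, was at 2188 in cornea and 319 in conjunctiva. RARRES1, a retinoic acid responder, was at 192 in cornea against 8078 in conjunctiva, with further probe sets at log2 ratios of -3.98 and -4.19. DHRS3, which reduces retinal, was at 130.3 in cornea and 533 in conjunctiva. The receptors RXRA, RARA and RARG were less than 2-fold apart, at log2 ratios of 0.27, 0.51 and 0.01.

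Signaling lists are read beside the shares of all genes, 8.77% toward the cornea and 8.33% toward the conjunctiva. Of 37 measured genes of TGF-beta and BMP signaling 27 reached 100, with 3 higher in the cornea against 9 in the conjunctiva. The ligand TGFB2 was at 1357 in cornea against 228 in conjunctiva, and 3 further probe sets had log2 ratios of 3.84, 4.30 and 3.26. The receptor TGFBR1 was at 715 in cornea and 346 in conjunctiva and SMAD9, a BMP transducer, at 1105 in cornea against 150.2 in conjunctiva. The receptor TGFBR2 was the opposite of its ligand at 52.0 in cornea and 397 in conjunctiva, as was the co-receptor TGFBR3 at 764 in cornea against 2696 in conjunctiva. The BMP antagonists CHRDL1 and FST were at 31.0 in cornea and 876 in conjunctiva and at 121 in cornea against 587 in conjunctiva. TGFB2 and TGFBR1 thus lay on the corneal side and TGFBR2 and TGFBR3 on the conjunctival side.

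Of 38 Wnt genes 26 reached 100, with 2 higher in the cornea against 9 in the conjunctiva. The 2 were the ligand WNT7A at 273 in cornea and 92.5 in conjunctiva and KREMEN1, a receptor of Wnt inhibitors, at 592 in cornea against 254 in conjunctiva, whose further probe set had a log2 ratio of -0.30. WNT5A, a ligand, was at 2633 in cornea and 1468 in conjunctiva, and a further probe set at 398 in cornea against 90.7 in conjunctiva. FZD1, a receptor, was at 345 in cornea and 1242 in conjunctiva and LEF1, a nuclear effector, at 78.1 in cornea against 211 in conjunctiva. Of 22 Notch genes 17 reached 100, with 4 higher in the conjunctiva and 0 in the cornea. These were the target genes HEY1 at 102 in cornea and 675 in conjunctiva and HEY2 at 40.0 in cornea against 518 in conjunctiva, the ligand DLL1 at 133 in cornea and 592 in conjunctiva and the coactivator MAML2 at 518 in cornea against 2040.1 in conjunctiva. The receptors NOTCH1 and NOTCH2 and the ligand JAG1 were less than 2-fold apart, at 217 in cornea and 211 in conjunctiva, at 1274 in cornea against 1209 in conjunctiva and at 1922 in cornea and 1130.0 in conjunctiva. EGFR, the receptor of epithelial growth factors, was at 3964 in cornea against 1905 in conjunctiva, and was the 1 member of 8 at 100 whose brightest probe set was 2-fold apart. Of 6 further EGFR probe sets, 5 had log2 ratios from -0.26 to 0.25 and 1 of 1.01. NRG1, an EGF family ligand, was at a log2 ratio of -0.12, with further probe sets at 2.07, 2.39 and -0.48, and TGFA, another ligand, at 0.17, with a further one at 1.21.

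The insulin-like growth factor axis had 12 of 14 members at 100, with 4 higher in the conjunctiva and 2 in the cornea. IGFBP3, a binding protein, was at 139.8 in cornea and 3603 in conjunctiva, with a further probe set at 68.0 in cornea against 168 in conjunctiva. The ligand IGF1 was at 29.2 in cornea and 205 in conjunctiva. IGFBP6 was higher in the cornea at 3401 in cornea against 1528 in conjunctiva. KIT, a receptor tyrosine kinase that mast cells and melanocytes also express, was at 6078 in cornea and 1607 in conjunctiva. Other mast cell markers were TPSAB1 and TPSB2, the tryptases, which were under 100 in both tissues, and CPA3 at 37.9 in cornea against 148 in conjunctiva.

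Transcription factors of the ocular surface had 26 of 34 members at 100, with 3 higher in the cornea against 6 in the conjunctiva. KLF4, an epithelial barrier factor, was at 10012 in cornea and 3006 in conjunctiva, and PAX6, the eye field factor, was at 7742 in cornea against 3460.2 in conjunctiva, its further probe set at 4361 in cornea and 3028 in conjunctiva. TFAP2A was at 3567 in cornea against 1623 in conjunctiva. SOX9 was at 23.9 in cornea and 566 in conjunctiva, the largest difference of this list, and a further probe set was at 19.2 in cornea against 151 in conjunctiva. NR2F1 and FOXC2 were at 25.8 in cornea and 184 in conjunctiva and at 24.4 in cornea against 149 in conjunctiva, and IRX3 at 315 in cornea and 1130.3 in conjunctiva. KLF5, ELF3 and EHF, factors of many epithelia, were less than 2-fold apart, at log2 ratios of -0.35, 0.03 and -0.74, but the further EHF probe sets were more than 2-fold higher in the conjunctiva at -1.45 and -1.20. POU3F3, a neural and kidney factor outside these lists, was at 1122 in cornea against 30.1 in conjunctiva, and E2F7, a repressor of the cell cycle, at 1709.7 in cornea and 43.8 in conjunctiva.

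Immediate early genes, which respond within minutes to stimuli and to handling of tissue, had 25 of 27 members at 100, with 4 higher in each tissue. FOS was at 39.6 in cornea against 289.6 in conjunctiva and JUN at 142 in cornea and 515 in conjunctiva, and CCN2 at 19.9 in cornea against 122 in conjunctiva. NR4A2 was at 1076 in cornea and 424 in conjunctiva and IER3 at 459.6 in cornea against 216 in conjunctiva. The part of handling time in these values was not tested.

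Cell cycle genes had 27 of 35 members at 100, with 7 at least 2-fold higher in the cornea against 1 in the conjunctiva. The median was 0.67 over the 27 and 0.40 over all 35. Divided by the hybridization controls the counts were 5 and 1 and the median over the 27 was 0.35. TOP2A, which untangles DNA before division, was at 265 in cornea and 56.9 in conjunctiva, CCNB2, a mitotic cyclin, at 325 in cornea against 124 in conjunctiva and NUSAP1 at 355 in cornea and 130.3 in conjunctiva. CDKN1B, an inhibitor of the cell cycle, was also higher in the cornea at 184 in cornea against 56.9 in conjunctiva. CCND2, a cyclin of early phases, was at 76.2 in cornea and 289 in conjunctiva. MKI67, the proliferation antigen, was at 196 in cornea against 174 in conjunctiva, and a further probe set at 126 in cornea and 47.5 in conjunctiva. MCM2 and MCM7, of the replication helicase, had log2 ratios of 0.11 and 0.08.

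Ranked over all genes, the 25 largest ratios ran from 15.1-fold to 212-fold in the cornea and from 24.2-fold to 178-fold in the conjunctiva. In the lower tissue 21 of the former and 20 of the latter were under 100, and 14 and 11 were under that array's median, so that these folds rest on values close to the background of the array. Many had no place in the lists. In the cornea these included DIRAS2, a small GTPase, at 669 in cornea against 13.7 in conjunctiva, RGS7, a regulator of G protein signaling, at 524 in cornea and 12.1 in conjunctiva, and ETNPPL at 717 in cornea against 17.2 in conjunctiva. XDH, xanthine dehydrogenase, was at 878 in cornea and 45.9 in conjunctiva, GEM, a GTPase that acts on calcium channels, at 946 in cornea against 44.1 in conjunctiva, and JPH1, a junctophilin, at 2134 in cornea and 136 in conjunctiva. ADIRF and ZBED2 had high values in the cornea, at 6889 and 3037, against 403 and 145 in the conjunctiva. MTUS2 was 26.5-fold higher in the cornea, at 847, but its further probe sets had log2 ratios of 0.10 and 1.57. CNTNAP2, a neural adhesion protein, had 64.3-fold, with a further probe set at a log2 ratio of 4.38.

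In the conjunctiva the list held PIGR, the carrier of secreted antibodies across epithelium, at 85.4 in cornea against 3344 in conjunctiva, although a further probe set was at 107 in cornea and 167 in conjunctiva. AGR3 was at 28.7 in cornea against 968 in conjunctiva and CHRM3, a muscarinic receptor that drives secretion, at 19.0 in cornea and 697 in conjunctiva. ENPP2, which makes lysophosphatidic acid, was at 31.6 in cornea against 922 in conjunctiva, MAN1A1, a mannosidase of glycan processing, at 31.1 in cornea and 830.0 in conjunctiva and KCNMA1, a potassium channel, at 66.4 in cornea against 1664 in conjunctiva. PPP1R9A was at 12.9 in cornea and 500.3 in conjunctiva.

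**Figure D4:**
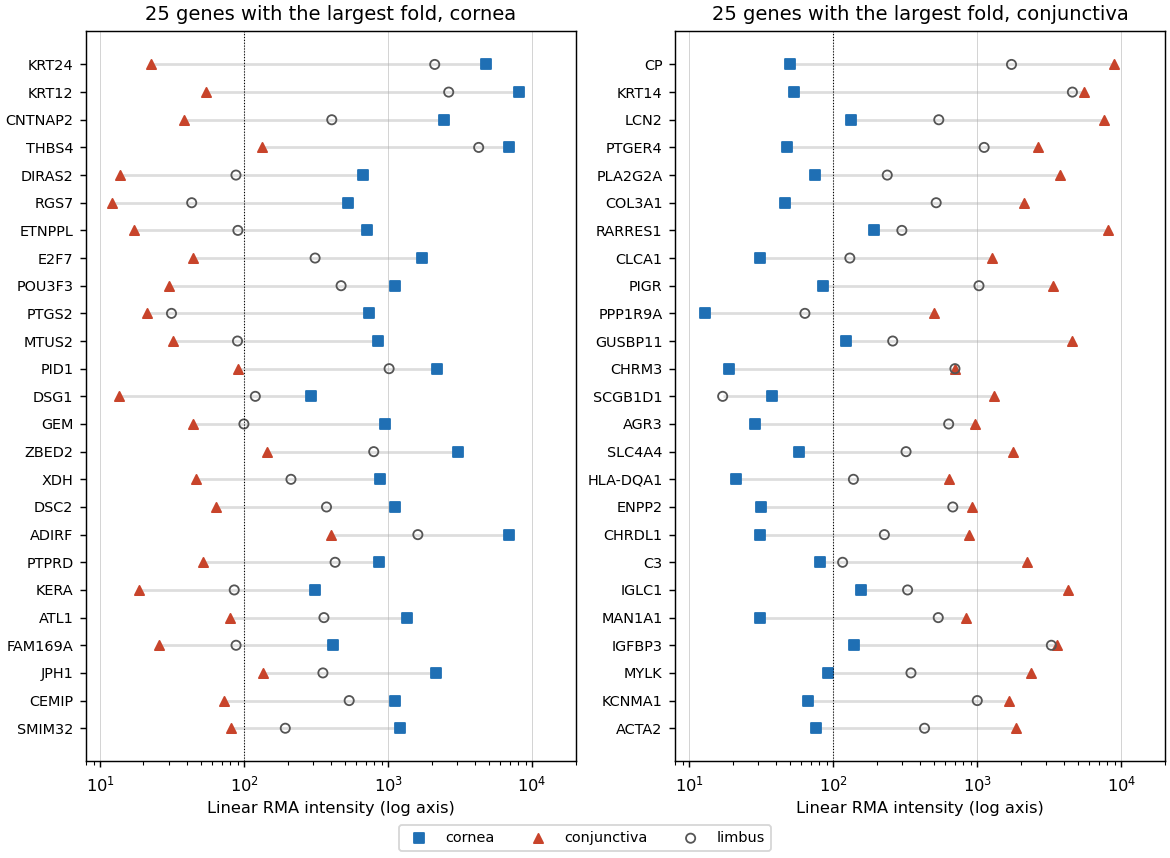
Linear RMA intensity (log axis) in the cornea, conjunctiva and limbus, 1 array each, of the 25 genes with the largest fold toward the cornea (left) and toward the conjunctiva (right). The dotted line marks 100, under which 21 corneal genes lie in the conjunctiva and 20 conjunctival genes in the cornea, and the limbus lies between for most genes.

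The limbus, which had no part in choosing these genes, mostly lay between. Its place was expressed on the log2 scale as 0 at the conjunctival and 1 at the corneal level. Of the 945 genes higher in the cornea 833 (88.1%) had the limbus between, at a median of 0.446, with 40 above and 72 below both tissues. Of the 897 higher in the conjunctiva 775 (86.4%) did, at a median of 0.402, with 87 above and 35 below both. With the arrays divided by their hybridization controls, of which the limbus had the lowest geometric mean, 735, these medians were 0.731 and 0.174. By gene group the medians ran over a wide range. These group medians were taken at the deposited scaling only, and their change with the hybridization controls was not tested. The 4 corneal keratins had the limbus at a median of 0.781 and the 6 conjunctival ones at 0.038, so that the limbal array was near the higher tissue for both. KRT14 was at 4580.1 and KRT15 at 3159 in the limbus, close to the conjunctiva, while KRT12 was at 2633 and KRT5 at 6129. Goblet cell genes were near the corneal level in the limbus, at a median of 0.903 over 8 genes, and the 7 gland genes had a median of 1.13 and a range from 0.813 to 1.60. MUC5AC was at 127 and SCGB1D1 at 17.1 in the limbus. Smooth muscle genes were at 0.574 over 8 genes and vessel genes at 0.344 over 9.

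Some genes stood highest in the limbus. KRT13 at 5797, KRT4 at 2084, HPGD at 753 and GPX2 at 804 were above both tissues there. PTGS2 was at 31.3 in the limbus, near the conjunctival value, and FOS was at 209, also nearer the conjunctiva, while JUN at 638 was above both tissues. The prostaglandin genes PLA2G4A and PTGDS had limbal values of 517 and 2887, between the tissues.

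**Figure D5:**
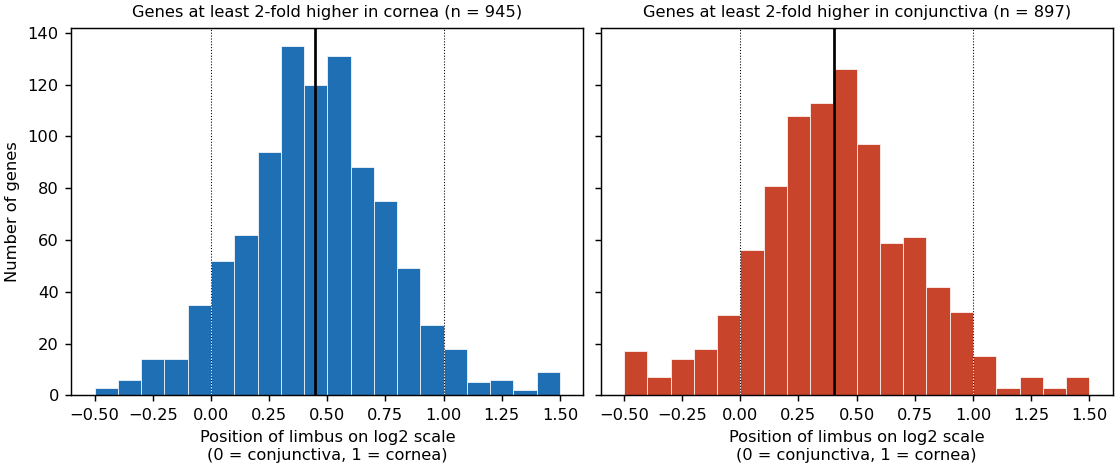
Number of genes (vertical axis) by position of the limbus between the conjunctiva (0) and the cornea (1) on the log2 scale, for the 945 genes at least 2-fold higher in the cornea (left) and the 897 in the conjunctiva (right), 1 array per tissue; thick lines mark the medians of 0.446 and 0.402, dotted lines the tissues, and the end bins also hold values beyond the axis. Most genes lie between the dotted lines.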

How the data were processed

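Total RNA of the cornea, the conjunctiva and the limbus was amplified in a pair of rounds and hybridized to 1 array per tissue. The authors deposited linear intensities, which they made with RMA (named without a version in the submitters' processing notes) through justRMA, each array combined with a fixed pool of reference arrays; differences of scale between arrays can therefore remain. The array was designed on human sequence, so values of different probe sets are not compared as levels of genes. Summed levels of lists add such values and weigh the brightest members most. Depth has no meaning for arrays, and their number limits the precision.

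An older annotation gave 41097 probe sets exactly 1 symbol and 1801 several; 11777 are not named here. A further 6 Affymetrix control probe sets were left out. A gene was read from the eligible probe set whose mean log2 value was highest over the cornea and the conjunctiva, and 3757 genes had more than 1. Columns of other samples numbered 0. A value of 100 and a ratio of 2 were the limits, in scripts run under Python 3.11.15 (pandas 2.3.3, numpy 2.4.6, matplotlib 3.10.9). The 55 gene lists, 20 of them cell type markers, held 1113 symbols, of which 1025 were measured and 744 reached 100, with 11 matched through older symbols. Named genes are the 25 with the largest ratio in each direction, list members at least 2-fold apart, members of marker lists, and the brightest members of a list less than 2-fold apart. Further list members less than 2-fold apart and further probe sets were named after their values were seen. The members, lists and rules were chosen with earlier results of these data known. No test was possible with 1 array per tissue. The counting was tested on simulated data. Alternatives varied the minimum, the ratio, a pseudocount, the scaling of the arrays and the probe set rule.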

Additional observations from a re-analysis of the deposited data

How the results depend on the processing

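With 1 array per tissue no replicate could be left out, and folds of genes under 100 in the lower tissue rest on values near the array's background. No paired analysis was possible because each tissue had 1 array and no test was made. Of the counts, a minimum of 200 gave 797 probe sets higher in the conjunctiva. A threshold of 1.5-fold gave 3384 and 2389 probe sets and 2115 and 1655 genes in the cornea and the conjunctiva, and 4-fold gave 291 and 491 probe sets and 208 and 363 genes. Division by the hybridization controls gave 760 and 2051 probe sets, 513 and 1440 genes, and 30 genes at least 10-fold higher in the cornea, and it placed the limbus at 0.731 for genes of the cornea and 0.174 for genes of the conjunctiva. Under that scaling the genes higher in the conjunctiva numbered 10 for macrophages and dendritic cells, 5 for plasma and B cells, 3 for melanocytes, 11 for complement, 9 each for integrins and antioxidant genes, 8 for retinoid genes and 11 for transcription factors. Genes higher in the cornea then numbered 3 for ion transport, 2 each for collagens and chemokines, 1 each for Wnt genes, antioxidant genes and transcription factors, and 0 for the EGF family, the insulin-like growth factor axis, loose connective tissue fibroblasts and corneal endothelium. After quantile normalization genes higher in the cornea numbered 0 for the EGF family and fibroblasts and 1 for the insulin-like growth factor axis and S100 genes, and 2 melanocyte genes were higher in the conjunctiva. After median scaling 1 aldehyde dehydrogenase and 3 retinoid genes were higher in the conjunctiva, and 1 S100 gene and 1 inhibitor in the cornea. A pseudocount of 32 gave 130 and 230 genes at 4-fold and 30 and 48 at 10-fold. The other counts over all genes or probe sets, at a minimum of 50 or none, after quantile or median scaling and with the median over probe sets, were within 1.5-fold of those given. Of the medians of 55 lists, 10 moved with no minimum, 2 with the pseudocount, 2 with the median over probe sets and 1 with the hybridization controls. Of genes that the naming rule picked by their ratio, 305 of 328 were still at least 2-fold apart on the same side with hybridization controls, 300 of 330 with the pseudocount, 323 of 329 after quantile normalization, 321 of 328 after median scaling and 319 of 330 with the median over probe sets. Of the 25 genes with the largest folds, 20 in each direction were shared with the pseudocount, and 20 of the cornea and 17 of the conjunctiva with the median over probe sets. Counts at 4-fold and 10-fold and the place of the limbus under these settings were chosen after seeing the data. The cause of the shift between scalings was not tested.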

Other observations

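Marker lists of further cell types were also read. Of 8 markers of lymphatic endothelium 4 reached 100, with CCL21, a chemokine of lymphatic vessels, at 79.6 in cornea against 245 in conjunctiva, while LYVE1, FLT4, MMRN1 and STAB2 were under 100 in both tissues. RELN of the same list was higher in the cornea at 693 in cornea and 243 in conjunctiva. Of 16 skeletal muscle markers 4 reached 100, and the 2 at least 2-fold higher in the conjunctiva were TNNT1 at 110.2 in cornea against 270.0 in conjunctiva and MB at 54.6 in cornea and 177 in conjunctiva. The myosin genes MYH1, MYH2, MYH3 and MYH8 and the actin gene ACTA1 were under 100 in both tissues. The troponin genes TNNI2 and TNNT3 reached 100 and were level. TNNI2 was at 184 in cornea against 188 in conjunctiva and TNNT3 at 127 in cornea and 128 in conjunctiva. Of 9 melanocyte markers 4 reached 100, with MLANA, a melanosome antigen, at 32.9 in cornea against 113 in conjunctiva and 303 in the limbus. TYR and TYRP1, enzymes of pigment synthesis, were under 100 in the cornea and the conjunctiva.

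Of 9 markers of Schwann cells and nerve 6 reached 100. NCAM1, a neural adhesion molecule, was higher in the cornea at 362 in cornea and 103 in conjunctiva, with further probe sets at log2 ratios of 0.40 and 1.52. GFRA3, a receptor of sensory neurons, was higher in the conjunctiva at 62.7 in cornea against 508 in conjunctiva, with a further probe set at a log2 ratio of -0.23. Of 10 markers of corneal endothelium, a layer that the corneal dissection did not take, 5 reached 100, with 1 higher in the cornea, COL8A2 at 109 in cornea and 41.7 in conjunctiva, and 2 in the conjunctiva, ATP1B1 and SLC4A4, and a median of -0.98 over the 5. Of 9 adipocyte markers 2 reached 100, with CIDEA at 285 in cornea against 74.3 in conjunctiva, while ADIPOQ, LEP and PLIN1 were under 100 in both tissues. Of 5 measured erythrocyte markers 2 reached 100, and HBB, a haemoglobin chain, was at 149.6 in cornea and 414 in conjunctiva. The neutrophil marker S100A8 was at 35.3 in cornea against 53.8 in conjunctiva, and MPO and ELANE were under 100 in both tissues.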
